A study of Homo sapiens with 29 samples.

Results

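The 10 genes described here are the forkhead transcription factors FOXO1, FOXO3 and FOXO4 and 7 genes that PI3K signaling is known to hold down, IRS2, PIK3IP1, SESN1, SESN3, CCNG2, KLF6 and SGK1. They were chosen by name, out of 35579 genes to which the transcripts were summed. No measured value entered the rule, but the members and the gene lists used below were chosen with earlier results of these data known. PC9 is a lung adenocarcinoma cell line with mutant EGFR, and 10 lines of it were sequenced. They were parental cells (PAR), cells in which AXL, a receptor tyrosine kinase, had been knocked out by CRISPR-Cas9 (KO), and knockout cells given back AXL by lentivirus in its wild-type form (WT), in a kinase-dead form (KD) or with a tyrosine-to-phenylalanine change (Y634F, Y643F, Y698F, Y726F, Y750F and Y821F). The transduced lines were mixed populations in which, by the study's account, only a minority of cells expressed AXL, and their AXL levels differed. The study also reported lower AXL activation in WT and the Y-to-F lines than in PAR. Dishes seeded with 300000 cells were left untreated, or kept for 24 h with 1 μM erlotinib, an inhibitor of the EGFR kinase (E), or with both erlotinib and the AXL-activating antibody AF154 at 300 ng/mL (EA). There were 10 untreated libraries, 10 E libraries and 9 EA libraries, 1 per line and treatment, and KO with EA was not analysed here.

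In growing cells, PI3K makes a membrane lipid that recruits the kinase AKT, and AKT phosphorylates the FOXO proteins, which then leave the nucleus. When the receptor above PI3K is silenced, FOXO proteins return to the nucleus and transcribe genes of nutrient sensing, cell-cycle arrest and feedback onto the receptor pathway. FOXO activity is controlled largely by location and phosphorylation, which RNA does not report. Mutant EGFR is the main receptor that feeds PI3K in PC9 cells.

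Values are in TPM, a length-corrected share of all transcripts with the same total in every library, so levels may be compared between genes while the depth behind them is unknown. The lines served as replicates of a treatment, although they carry different receptors, and p-values measure the spread between lines. AXL was lowest in KO, at 79.3 and 92.4 TPM, against 217 to 852 TPM in the 27 other libraries. Of 9 epithelial markers, 6 averaged 10 TPM or more, among them EPCAM (286 to 439 TPM) and KRT8 (1249 to 1952 TPM), while the lung lineage factor NKX2-1 never exceeded 0.354 TPM. Of 12 markers of leukocytes, fibroblasts, endothelium and red cells, 5 stayed under 1 TPM in every library and only CD68 and COL1A1 averaged 10 TPM or more. The summed level of the 12 lay between 65.5 and 100.03 TPM untreated, between 84.1 and 101 TPM with E and between 78.5 and 110 TPM with EA. Its part in the results was not tested. In bulk RNA, more cells of a type and more RNA per cell cannot be told apart. Mitochondrially encoded transcripts took 11.4% to 14.2% of the TPM in untreated lines other than PAR and 14.4% in PAR. With E they took 17.4% in PAR and 12.3% to 14.2% in the other lines, and with EA 16.4% in PAR and 12.9% to 17.4% in the others, highest in Y821F.

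The sequence that FOXO proteins bind is known as GTAAACA, and a related element of insulin-repressed genes has the core CAAAACA. Both were searched on both strands in windows of 300 bases around the RefSeq transcription starts (GRCh38.p14, 250 bases before to 50 after). GTAAACA stood in 2 of the 18 windows of the members and in 3.42% of all 35116 windows. CAAAACA stood in 2 of the 18 and in 4.92% of all windows, and the matches did not overlap. The 4 stretches that hold a match are shown because they belong to 4 of the members whose level rose with E. Each is written on the strand of its gene with the match in capitals, and TGTTTAC and TGTTTTG are the motifs read on the opposite strand.
FOXO4, chrX:71095863-71095891, plus strand, match beginning at base 24 after the start: cccggcgagtgGTAAACAgagacgtcagg
PIK3IP1, chr22:31292455-31292483, minus strand, match beginning at base 17 after the start: taaagagaggcTGTTTACcagaacagcat
IRS2, chr13:109786606-109786634, minus strand, match beginning 40 bases before the start: gagtcacatgtTGTTTTGctcttcttagt
SGK1, chr6:134178051-134178079, minus strand, match beginning 207 bases before 1 of 3 starts: tcctgtgcatgTGTTTTGaattttttccg
The windows of CCNG2, KLF6, SESN1, SESN3, FOXO1 and FOXO3 held neither run of letters. The RefSeq starts of the FOXO4 and SGK1 windows with a match, 71095851 and 134177861, are not those of their most abundant transcripts. FOXO4-202 begins at 71096197 and SGK1-201 at 134174896. PIK3IP1 had 2 windows, of which 1 held the match. That window has its start at 31292488, whereas PIK3IP1-201, the most abundant transcript, begins at 31292528. For IRS2 the window has its start at 109786583 and IRS2-201 begins at 109786568. A match describes letters and not binding, and these short windows leave out most of the regulatory sequence of a gene.

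Erlotinib was followed by a rise of most members in most lines. Of the 7 members that averaged 10 TPM or more across all libraries, 6 rose with E and 1 fell in the comparison of the 20 E and untreated libraries of 10 lines (limma, line as a block, adjusted p under 0.05 over 9085 genes). The same test called 36.4% of all genes higher and 42.6% lower, so the number of members called is not in itself particular to them. The median change of these 7 was 1.44 on the scale of log2(TPM + 1), and 4 of them rose by at least that much, as did 2.34% of all genes. The 3 others changed by 0.35 to 0.41 in size. Untreated, PIK3IP1 reached at most 3.71 TPM and FOXO4 at most 8.37 TPM, so both passed the filter through their treated libraries. The median of 1.44 and its rank among all genes thus lean in part on members kept because they rose. The median of all genes, which went both ways, was -0.04. For PIK3IP1, CCNG2, SGK1 and FOXO4, all 10 E libraries lay above all 10 untreated libraries, a separation in that direction seen in 14.9% of genes. A further 3 members, FOXO1, SESN1 and SESN3, had a mean under 10 TPM. FOXO1 and SESN1 were tested with the genes that averaged 1 TPM or more, where 35.5% of 14111 genes were called higher, and SESN3 passed neither filter.

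**Figure D1:**
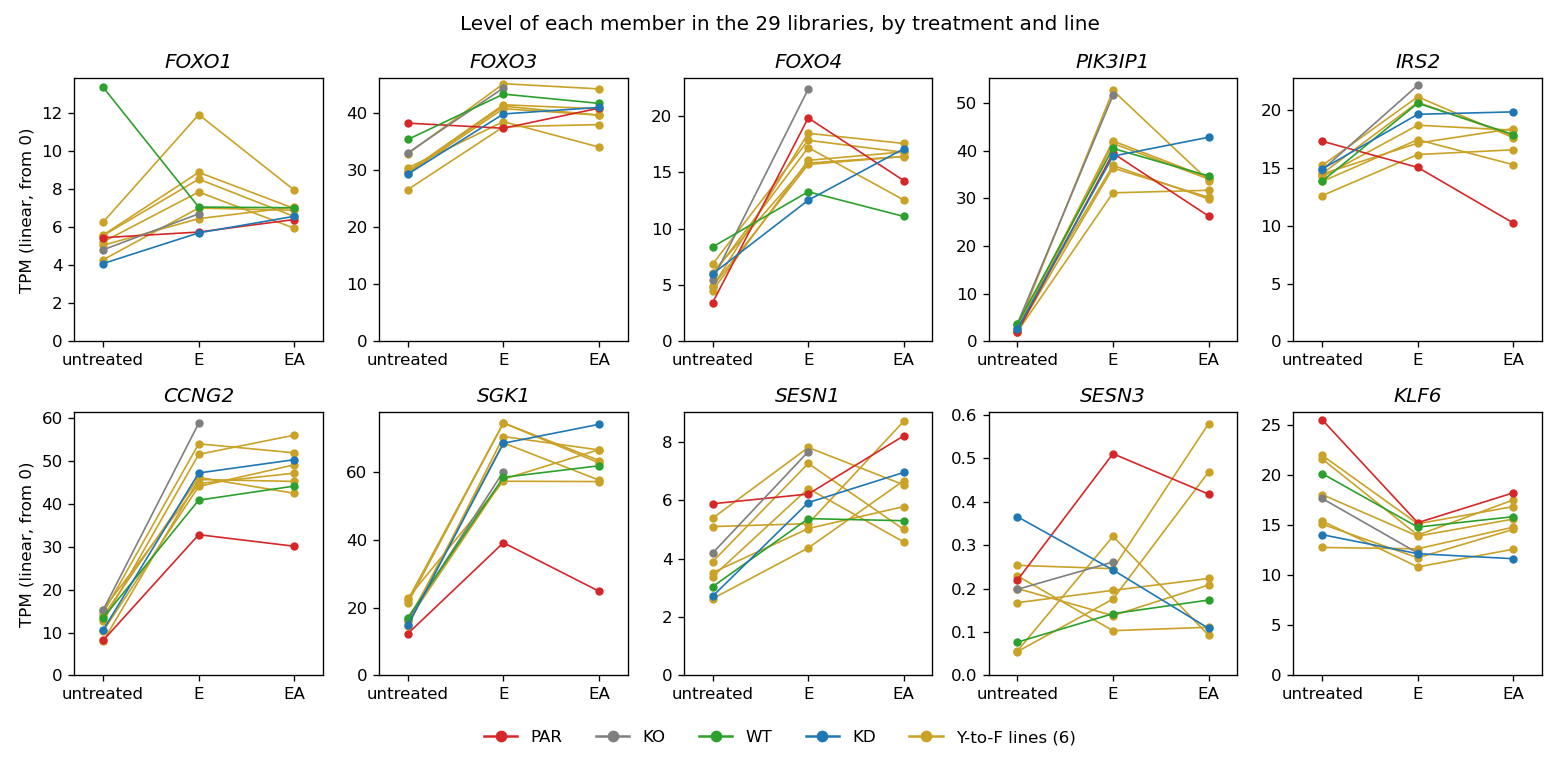
Each panel plots the TPM of a member on a linear axis from 0, with untreated, E and EA from left to right; a line joins the libraries of 1 cell line (PAR red, KO grey, WT green, KD blue, the 6 Y-to-F lines yellow). PIK3IP1 climbed from at most 3.71 TPM untreated to at least 31.1 TPM with E, PAR had the lowest SGK1 at every treatment, and SESN3 stayed under 0.6 TPM.

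PIK3IP1 (ENSG00000100100, chromosome 22 from 31281593 to 31292534, minus strand) encodes a transmembrane protein that binds the catalytic subunit of PI3K and inhibits it. It was nearly silent in untreated cells, with a lowest level of 1.93 TPM, a median of 2.57 TPM and a highest of 3.71 TPM. With E the lowest, median and highest levels were 31.1, 39.9 and 52.6 TPM. The gap between the treatments was wider than the spread of either. The means were 2.71 ± 0.682 TPM untreated and 41.1 ± 6.58 TPM with E (SD, n = 10 lines), a 15.2-fold difference. The log2 change was 3.51 ± 0.08 (SE), with an adjusted p of 7.61e-14, and it lay between 3.09 in Y643F and 3.86 in Y821F. KO, the AXL knockout, gave 3.48.

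CCNG2 (ENSG00000138764, chromosome 4 from 77157151 to 77433388, plus strand) encodes cyclin G2, an unconventional cyclin that accompanies cell-cycle arrest. Its levels in untreated lines ran from 7.96 TPM in Y750F to 15.4 TPM in Y726F with a median of 13.03 TPM. With E they ran from 32.8 TPM in PAR to 58.8 TPM in KO with a median of 46.0 TPM. The log2 change was 1.87 ± 0.08 (adjusted p = 1.28e-11), a 3.82-fold difference of the mean TPM, and it was above 0 in 10 of 10 lines.

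SGK1 (ENSG00000118515, chromosome 6 from 134169246 to 134318112, minus strand) encodes a kinase that is close to AKT in its catalytic domain and is activated downstream of PI3K. It had a lowest level of 12.4 TPM, a median of 16.3 TPM and a highest of 22.8 TPM untreated. With E the lowest level was 39.2 TPM in PAR, the median 64.4 TPM and the highest 74.6 TPM. PAR stood apart at E, since the next line up had 57.4 TPM. The log2 change was 1.80 ± 0.08 (adjusted p = 1.71e-11, higher in 10 of 10 lines), a 3.62-fold difference of the mean TPM.

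FOXO4 (ENSG00000184481, chromosome X from 71096197 to 71103535, plus strand) was the FOXO factor with the largest change. Its untreated levels lay between 3.44 TPM in PAR and 8.37 TPM in WT with a median of 5.70 TPM. With E they lay between 12.5 TPM in KD and 22.3 TPM in KO with a median of 16.6 TPM. The log2 change was 1.44 ± 0.13 (adjusted p = 8.21e-08), but it differed more between lines than that of the genes above, from 0.61 in WT to 2.23 in PAR. FOXO4-202, the transcript with 67.2% of the TPM of the gene, was steadier. It moved by 1.57 ± 0.132 on the log2 scale (SD, n = 10 lines), against 1.44 ± 0.463 (SD) for the gene, and by at least 1.40 in every line.

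FOXO3 (ENSG00000118689, chromosome 6 from 108559835 to 108684774, plus strand) had the highest level of the 3 factors. It ran from 26.6 to 38.3 TPM untreated with a median of 30.1 TPM, and from 37.4 to 45.2 TPM with E with a median of 41.02 TPM. Its change was small, 0.37 ± 0.05 on the log2 scale (adjusted p = 7.69e-06), and higher in 9 of 10 lines. The exception was PAR, which had both the highest untreated level and the lowest level with E and changed by -0.03. That untreated level included 5.13 TPM of FOXO3-203, a minor transcript that was under 0.05 TPM in 23 libraries. In PAR, FOXO3-201 was at 19.4 TPM untreated and 19.5 TPM with E, and FOXO3-202 at 13.7 and 17.9 TPM. Reads of FOXO3 can be shared with FOXO3B, a processed pseudogene on chromosome 17 that is nearly identical to it and was listed at 3.34 to 8.08 TPM, so the FOXO3 level is uncertain by an amount that was not tested.

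Most of the FOXO3 change lay in 1 of its transcripts. FOXO3-201 and FOXO3-202 share their start codon in the annotation and begin 1031 bases apart, FOXO3-202 within the first intron of FOXO3-201. FOXO3-201 had a median of 12.95 TPM untreated (9.93 to 19.4 TPM), 25.0 TPM with E (19.5 to 30.2 TPM) and 24.8 TPM with EA (19.8 to 29.1 TPM). FOXO3-202 had medians of 17.2, 16.03 and 14.1 TPM in the same order. With E, FOXO3-201 differed from untreated by 0.85 ± 0.363 on the log2 scale (SD) and was higher in 10 of 10 lines, whereas FOXO3-202 differed by -0.09 ± 0.286 and was higher in 3 of 10. FOXO3-201 was the more abundant of the pair in 2 of 10 untreated libraries, in 9 of 10 with E and in 8 of 9 with EA. The 100 bases before each start are shown, with CG dinucleotides in capitals, because the start is what distinguishes the transcripts (RefSeq windows of GRCh38.p14, transcript starts from GENCODE 29).
FOXO3-201, chr6:108559735-108559834, plus strand: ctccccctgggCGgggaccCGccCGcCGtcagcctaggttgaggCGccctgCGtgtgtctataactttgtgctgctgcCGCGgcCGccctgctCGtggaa
FOXO3-202, chr6:108560766-108560865, plus strand: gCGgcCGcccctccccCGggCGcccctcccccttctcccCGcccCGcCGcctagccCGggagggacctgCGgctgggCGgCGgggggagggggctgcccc
The first held 10 CG dinucleotides and 70.0% G and C, the second 11 and 87.0%, and neither held GTAAACA or CAAAACA. These transcripts share most of their length, so the quantification had to divide common reads between them, and the error of that division is not known.

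**Figure D2:**
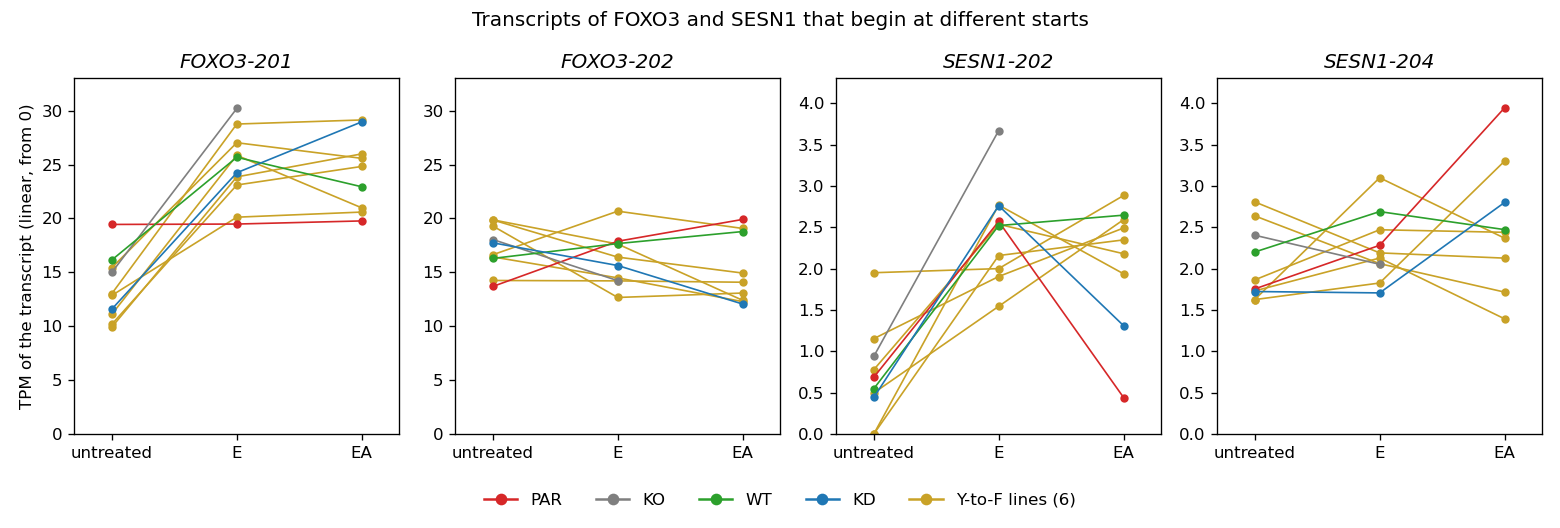
Transcript levels in TPM on linear axes from 0, by treatment, with a line for each cell line in the colours of the plot of levels. FOXO3-201 stood between 9.93 and 19.4 TPM untreated and between 19.5 and 30.2 TPM with E, while FOXO3-202 remained between 12.1 and 20.7 TPM in all 29 libraries; SESN1-202 reached at most 1.95 TPM untreated and at least 1.54 TPM with E, and with EA it was at 0.441 TPM in PAR and 1.31 TPM in KD.

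FOXO1 (ENSG00000150907, chromosome 13 from 40469953 to 40666597, minus strand) was low in all lines. In the untreated lines other than WT it lay between 4.10 and 6.28 TPM, and in WT it was at 13.4 TPM. With E it lay between 5.72 and 11.9 TPM with a median of 7.05 TPM. Over the 10 lines the difference was 0.34 ± 0.459 on the log2 scale (SD), with an adjusted p of 0.0325 in the limma fit of genes averaging 1 TPM or more and an exact sign-flip permutation p of 0.0469. WT went the other way, by -0.83. The high WT value came from FOXO1-202, a short transcript without an annotated coding sequence that was listed at 6.35 TPM in untreated WT, at 3.91 TPM in Y643F with E, and at under 0.05 TPM in the other 27 libraries. FOXO1-201, the coding transcript, lay between 4.10 and 6.34 TPM untreated and between 5.72 and 8.003 TPM with E. It was higher with E in 10 of 10 lines, by 0.35 ± 0.123 (SD) on the log2 scale, so the gene and its coding transcript had nearly the same mean change with very different spreads. Without WT, the exact p of the gene was 0.00391. Each of the 9 other omissions gave an exact p between 0.0547 and 0.0898.

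IRS2 (ENSG00000185950, chromosome 13 from 109752698 to 109786568, minus strand) encodes an adaptor through which insulin and related receptors reach PI3K. Its 1 transcript was at 12.6 to 17.3 TPM untreated with a median of 14.5 TPM, and at 15.1 to 22.2 TPM with E with a median of 19.2 TPM. It rose by 0.35 ± 0.07 on the log2 scale (adjusted p = 2.96e-04) and was higher in 9 of 10 lines. PAR again was the exception, with the highest level untreated, the lowest with E, and a change of -0.19. The paralog IRS1, another such adaptor, fell in the same comparison by 0.72 on the log2 scale, in 10 of 10 lines (adjusted p = 2.13e-07).

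SESN1 (ENSG00000080546, chromosome 6 from 108986437 to 109094819, minus strand) and SESN3 (ENSG00000149212, chromosome 11 from 95165513 to 95232541, minus strand) encode sestrins, stress proteins that restrain mTOR signaling and that are known FOXO targets. SESN1 lay between 2.63 and 5.89 TPM untreated, median 3.71 TPM, and between 4.37 and 7.82 TPM with E, median 6.07 TPM. It was higher with E in 10 of 10 lines, by 0.53 ± 0.296 on the log2 scale (SD), with an adjusted p of 1.98e-04 among genes averaging 1 TPM or more. The smallest differences were 0.02 in Y821F and 0.07 in PAR. SESN3 stayed between 0.0549 and 0.579 TPM in all 29 libraries, and its mean difference of 0.06 on the log2 scale had an exact p of 0.285. Its most abundant transcript alone differed by 0.09 with an exact p of 0.0234. At such levels a change of SESN3 could not be measured reliably here.

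SESN1 resembled FOXO3 in that its transcripts moved unequally. SESN1-204, which begins 85264 bases upstream of SESN1-202, had medians of 1.81 TPM untreated, 2.16 TPM with E and 2.44 TPM with EA. Its difference between E and untreated was 0.10 ± 0.278 on the log2 scale (SD), with 6 of 10 lines higher and an exact p of 0.289. SESN1-202 had medians of 0.617, 2.53 and 2.35 TPM, and its difference was 1.07 ± 0.559 (SD), higher in 10 of 10 lines. It was near the floor untreated, at 0.0 TPM in Y698F and Y750F. SESN1-204 held 41.2% of the TPM of the gene and SESN1-202 31.6%. Here too the quantification had to divide common reads between transcripts, with an error that is not known. The 100 bases before each start are shown for the same reason as for FOXO3, again with CG in capitals.
SESN1-204, chr6:109094820-109094919, minus strand: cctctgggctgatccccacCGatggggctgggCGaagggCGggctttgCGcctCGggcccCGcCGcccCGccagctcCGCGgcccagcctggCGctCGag
SESN1-202, chr6:109009556-109009655, minus strand: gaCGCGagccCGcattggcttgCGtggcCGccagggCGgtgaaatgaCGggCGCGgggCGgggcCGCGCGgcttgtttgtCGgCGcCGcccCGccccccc
They held 12 and 17 CG dinucleotides and both had 79.0% G and C. Neither held GTAAACA or CAAAACA.

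KLF6 (ENSG00000067082, chromosome 10 from 3775996 to 3785281, minus strand), a zinc-finger transcription factor, was the member that fell with E. It lay between 12.8 and 25.5 TPM untreated, median 17.9 TPM, and between 10.8 and 15.3 TPM with E, median 13.3 TPM. The log2 change was -0.41 ± 0.07 (adjusted p = 4.42e-05), and it was below 0 in 10 of 10 lines, from -0.71 in PAR to -0.01 in Y750F. The groups overlapped. KLF7, a paralog, rose by 0.52 (adjusted p = 6.92e-05).

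Adding AF154 to erlotinib moved PIK3IP1, CCNG2, SGK1 and FOXO4 far less than erlotinib itself had. In the 8 lines other than KO and KD, whose receptors keep kinase activity, 1 of the 7 tested members was called between EA and E, PIK3IP1, which was lower. The test called 1.88% of all genes higher and 0.473% lower in this comparison. Of the calls, 79.9% were higher, and 64.9% were once library medians were centred. PIK3IP1 had 31.1 to 52.6 TPM with E and 26.3 to 34.7 TPM with EA in these lines. Its log2 change was -0.31 ± 0.07 (95% confidence interval -0.46 to -0.17, adjusted p = 0.0375), and 7 of 8 lines were lower, Y750F being the exception at 0.02. The call was not firm: the adjusted p lay between 0.0376 and 0.0942 when each line was left out in turn, and it was 0.0634 with the filter at a mean of 1 TPM, where 0.475% of genes were called in either direction. With EA, PIK3IP1 remained 12.3-fold above the untreated mean of the same lines.

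KLF6 was higher with EA than with E in 8 of 8 lines, by 0.09 in WT to 0.30 in Y634F. In Y750F, where E had changed it by -0.01, EA took it above its untreated level, from 12.8 to 14.8 TPM. The mean change of 0.21 ± 0.05 (SE; 95% confidence interval 0.09 to 0.32) missed the threshold (adjusted p = 0.0659), while the exact sign-flip permutation p was 0.00781, the smallest that 8 lines can give. With genes at 10 TPM or more in every library, the adjusted p was 0.0438. KLF6 with EA was still below untreated, by -0.22 ± 0.08 (adjusted p = 0.0226, lower in 7 of 8 lines). That adjusted p passed 0.05 when PAR, WT, Y634F or Y643F was left out, with a highest value of 0.057.

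The other members were not called between EA and E. The log2 difference was -0.03 for FOXO3 (95% confidence interval -0.12 to 0.06), -0.14 for FOXO4 (-0.30 to 0.02), -0.16 for IRS2 (-0.31 to -0.0048, adjusted p = 0.226), 0.02 for CCNG2 (-0.08 to 0.12) and -0.15 for SGK1 (-0.31 to 0.02). FOXO1 differed by -0.16 with an exact p of 0.102, SESN1 by 0.07 with an exact p of 0.648 and SESN3 by 0.06 with an exact p of 0.383.

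**Figure D3:**
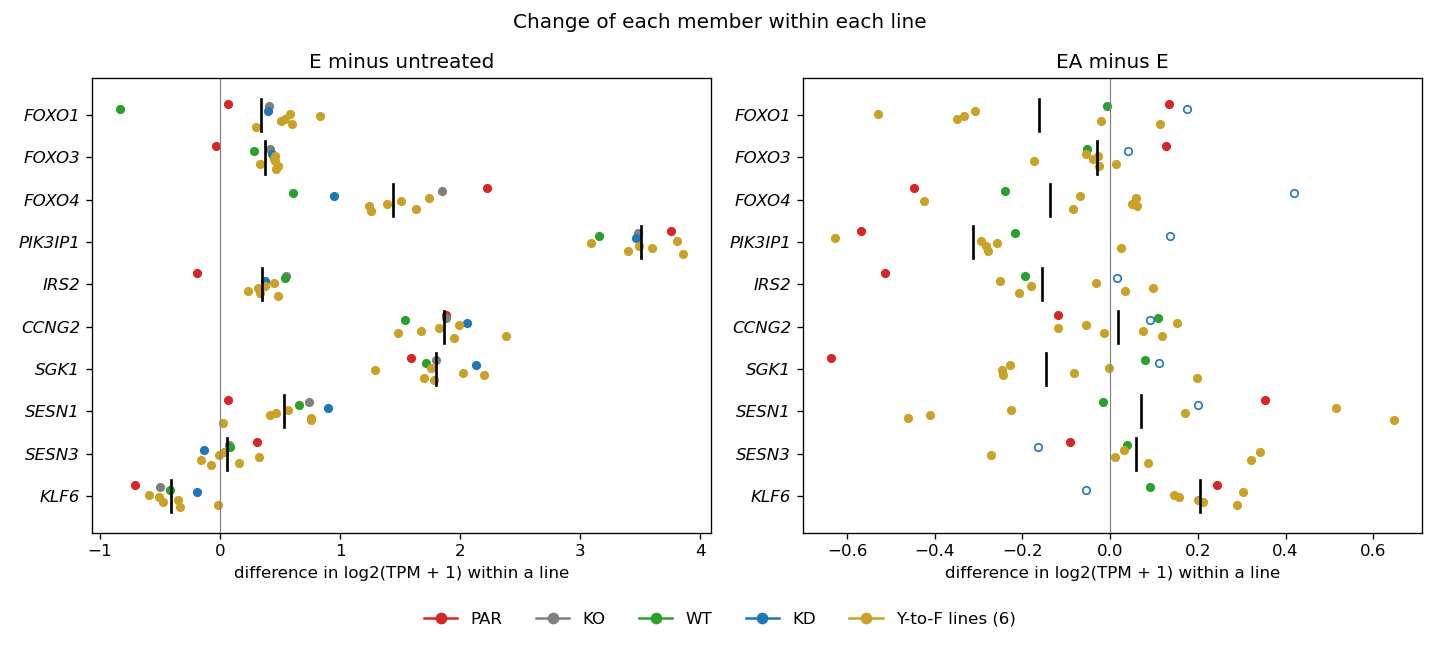
Differences in log2(TPM + 1) within each line, E minus untreated on the left and EA minus E on the right, with a point for each line and a black bar at the mean; open circles mark KD, which is not in the mean on the right. PIK3IP1 sits between 3.09 and 3.86 on the left and is below 0 in 7 of 8 lines on the right, where KLF6 is above 0 in 8 of 8; the scale on the right is much narrower.

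Against untreated cells, the EA libraries of the 8 lines showed 5 members higher, PIK3IP1 (3.21), CCNG2 (1.86), SGK1 (1.61), FOXO4 (1.31) and FOXO3 (0.33), each a log2 change with an adjusted p of at most 2.73e-04, and KLF6 lower. The test called 33.1% of genes higher and 37.6% lower. SESN1 was higher by 0.53 (adjusted p = 9.02e-04 among genes averaging 1 TPM or more, where 31.1% were called higher). FOXO1 and IRS2, called higher with E over all lines, were not called with EA over these 8 lines. The sets of lines differ, and neither gene was called between EA and E. FOXO1 was higher by 0.16 ± 0.136 (SE; adjusted p = 0.324 among genes averaging 1 TPM or more), with WT at -0.84 and 7 of 8 lines higher, and without WT the exact p was 0.0156 for a difference of 0.30. IRS2 was higher by 0.16 ± 0.11 (adjusted p = 0.215). This rested on PAR: its IRS2 fell to 10.3 TPM with EA, below its untreated 17.3 TPM, while 7 of 8 lines were above untreated, and without PAR the change was 0.28 with an adjusted p of 0.00142. These comparisons share libraries with those above.

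No line is replicated, so differences between lines were described and not tested. PAR was above all other lines at every treatment in KLF6, with 25.5, 15.3 and 18.2 TPM, and below all other lines in SGK1, with 12.4, 39.2 and 24.9 TPM. In the 9 other lines, SGK1 reached at least 14.6 TPM untreated, 57.4 TPM with E and 57.3 TPM with EA. Of all genes averaging 10 TPM or more, 20.5% set PAR apart in this way, so 2 of 7 members is near that share. KO set apart none of the 7 (6.81% of genes) and KD none (1.71%). With library medians centred, PAR set apart 3 members (20.1% of genes) and KO 2, PIK3IP1 and CCNG2 (7.15%).

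PAR also differed from the other lines in its changes. Its change with E lay outside the range of all 9 others in 4 members, above in FOXO4 (2.23) and below in KLF6 (-0.71), IRS2 (-0.19) and FOXO3 (-0.03), as it did in 42.5% of genes. Between EA and E it lay outside the range of the 7 other lines with kinase activity in 5 members, above in FOXO3 (0.13) and below in SGK1 (-0.64), IRS2 (-0.51), FOXO4 (-0.45) and CCNG2 (-0.12), as in 32.7% of genes. PAR was the line in which AXL had not been knocked out, and its mitochondrial share was above that of the other lines untreated and with E but not with EA. The part of either in these differences was not tested.

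KD, whose receptor lacks kinase activity, was set against the 8 lines between EA and E. Its PIK3IP1 was 38.8 TPM with E and 42.8 TPM with EA, a change of 0.14 that was above that of all 8 lines. FOXO4 in KD went from 12.5 to 17.1 TPM, a change of 0.42 that was also above all 8. KLF6 went from 12.2 to 11.7 TPM, a change of -0.06 that was below all 8. KD lay outside the range in 3 of 7 members and in 19% of all genes. The most abundant transcripts did not rise in KD: PIK3IP1-201 went from 34.4 to 30.9 TPM and FOXO4-202 from 12.4 to 11.8 TPM. The rises of these genes lay in PIK3IP1-204 (0.363 to 8.71 TPM), FOXO4-201 (0.143 to 3.30 TPM) and FOXO4-204 (0.0 to 1.97 TPM). KLF6-206 was at 8.12 TPM with E and 8.14 TPM with EA. With 1 KD library per treatment these differences have no error.

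The treatment accounted for most of the variation of the members that changed most with E. Their large share follows in part from that choice. These shares were taken over the 24 libraries of the 8 lines other than KO and KD. Treatment means held 98.5% of the sum of squares of log2(TPM + 1) of PIK3IP1, 91.9% of CCNG2, 88.5% of FOXO4 and 84.6% of SGK1. The median over all genes averaging 10 TPM or more was 51.05%. FOXO3 had 66.3% by treatment. In KLF6 the lines held more than the treatments, 48.0% against 40.2%, and in IRS2 the treatments held 33.4%, the lines 24.4% and the remainder 42.2%. For FOXO1 the remainder was 49.2%, and 33.5% lay between lines.

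Within a treatment, the members mostly varied together less closely than over all libraries. Over the 29 libraries PIK3IP1 and CCNG2 had a Pearson r of 0.97, PIK3IP1 and FOXO4 0.95, and PIK3IP1 and SGK1 0.94, and KLF6 was negatively correlated with each other member, from -0.63 with SGK1 to -0.22 with FOXO3. These points share lines and treatments, so the correlations mostly restate the response to E. After the mean of each treatment was subtracted, r between PIK3IP1 and CCNG2 was 0.49, and the median over the 21 pairs was 0.24. The highest was 0.61, between FOXO3 and KLF6. Leaving PAR out moved pairs both ways. SGK1 and IRS2 went from 0.52 after subtraction to -0.17, and FOXO3 and CCNG2 from 0.21 to 0.57. The values of other genes were not taken for comparison.

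**Figure D4:**
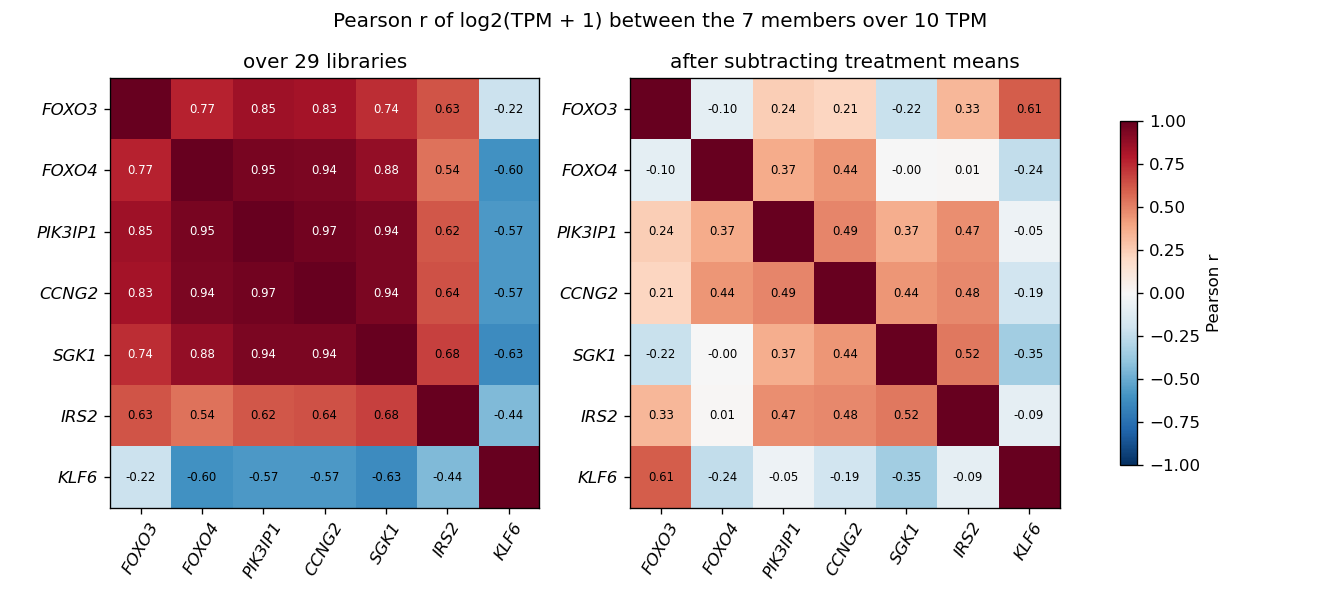
Pearson r of log2(TPM + 1) for each pair of the 7 members averaging 10 TPM or more, over the 29 libraries on the left and after subtraction of treatment means on the right; red is positive and blue negative. The block of FOXO4, PIK3IP1, CCNG2 and SGK1 has r of 0.88 to 0.97 on the left and of -0.0026 to 0.49 on the right.

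The genes whose pattern over the 29 libraries was most like that of a member are given as a description. For PIK3IP1 they were BMF, a pro-apoptotic BCL2-family gene, SOX4, a transcription factor, and GLUL, glutamine synthetase, with r of 0.99 each. For CCNG2 they were PNRC1, FILIP1L and NEDD9 (0.99, 0.99 and 0.99), for SGK1 the contractile genes MYL9 and TAGLN and the tubulin gene TUBA1A (0.99, 0.99 and 0.98), and for FOXO4 the lysosomal genes PSAP and LMBRD1 and the iron reductase CYBRD1 (0.95, 0.95 and 0.95). For FOXO3 they were TNFRSF21, GAS6, the ligand of AXL, and KIAA1217 (0.94, 0.93 and 0.93). IRS2 was nearest to PCBP2 (0.87), CBLC (0.84) and MMD (0.82), and KLF6 to RASA1 (0.85), KPNA3 (0.84) and MIPEP (0.83). PIK3IP1 had 828 genes with r over 0.9 and SGK1 598, while IRS2 and KLF6 had 0, so close likeness to the first pair is common in this table.

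Several transcripts make up the remaining members. Of 74 annotated transcripts of the 10 genes, 25 averaged 1 TPM or more. PIK3IP1-201 held 74.0% of its gene, with medians of 1.59 TPM untreated, 28.9 TPM with E and 25.6 TPM with EA. PIK3IP1-204, the transcript that begins where the RefSeq window with GTAAACA has its start, had medians of 0.123, 5.11 and 3.26 TPM. SGK1-201 held 77.2% of SGK1, which has 30 transcripts in the annotation, at medians of 12.5, 50.1 and 49.1 TPM. CCNG2 was divided among CCNG2-204 (46.5%), CCNG2-205 (23.7%) and CCNG2-201 (22.0%), and each was higher with E in 10 of 10 lines. KLF6-206 held 64.4% of KLF6 and was lower with E in 10 of 10 lines. Between EA and E it changed by 0.09 ± 0.103 (SD, n = 8) and was higher in 6 of 8 lines, against 0.21 and 8 of 8 for the gene. PIK3IP1-201 changed by -0.14 ± 0.275 (SD, n = 8) between EA and E, less than the gene, and when the most abundant transcript replaced each gene sum, PIK3IP1 was no longer called in that comparison (adjusted p = 0.371).

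Other genes known as FOXO targets were examined as a list of 32, of which 25 averaged 10 TPM or more. With E, 22 rose, 3 fell and 0 failed the threshold, where 36.4% of all genes rose and 42.6% fell. The median log2 change of the 25 was 1.14, a rise that 4.24% of all genes reached. Some of the 25 averaged under 10 TPM untreated and passed the filter through their treated libraries. FBXO32, a muscle-atrophy ubiquitin ligase, rose by 2.67 ± 0.09 (adjusted p = 2.45e-12), CITED2, a transcriptional co-regulator, by 2.41 ± 0.06 (adjusted p = 2.53e-13), and YPEL3, a growth-suppressive gene, by 2.36 ± 0.04 (adjusted p = 1.07e-14), each in 10 of 10 lines. The 3 that fell were KLF4, a transcription factor (-0.68), BNIP3, a mitophagy receptor (-0.67), and SOD2, mitochondrial superoxide dismutase (-0.46). Between EA and E, 0 of the 25 passed the adjusted limma threshold. An unadjusted p under 0.05 was found for 10 of the 25 and for 1895 of all 9085 genes. The lowest adjusted p among the 25 was 0.0962, for GADD45A. Against untreated, the EA libraries gave the same counts, 22 higher and 3 lower.

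Of the 20 genes of the PI3K and AKT core, 15 were tested, and with E 9 rose, 3 fell and 3 did not pass. Among all genes 36.4% rose and 42.6% fell, and the counts of this list and the next lists were not tested against those shares. INPPL1, a lipid phosphatase that acts on the product of PI3K, rose by 0.77 ± 0.10, PIK3CD, a catalytic subunit, by 0.73 ± 0.10, and PIK3C2B, a class II PI3K, by 0.56 ± 0.07. AKT1 fell by 0.46 ± 0.04, in 10 of 10 lines (adjusted p = 9.18e-08), PIK3CB fell by 0.17 and GSK3A by 0.16. Of the mTOR branch, 22 of 24 genes were tested, with 7 higher, 13 lower and 2 not past the threshold. EIF4EBP1, a translational repressor controlled by mTOR, fell by 1.11 ± 0.04, SEH1L, a nutrient-sensing and nuclear-pore subunit, by 0.96, and NPRL3, another nutrient-sensing subunit, by 0.58. TSC1 and TSC2, which together inhibit mTOR signaling, rose by 0.41 and 0.33, and RICTOR, a scaffold of the mTOR complex that phosphorylates AKT, by 0.31. In the list of 22 regulators and partners of FOXO proteins, 5 were higher, 12 lower and 5 did not pass. SKP2, a ubiquitin-ligase subunit that targets FOXO1, fell by 1.37 ± 0.06 in 10 of 10 lines (adjusted p = 1.81e-11), YWHAH, of the adaptor family that holds phosphorylated FOXO in the cytoplasm, fell by 0.84, and PRMT1, which methylates FOXO1, by 0.64. The acetyltransferases CREBBP and EP300 rose by 0.58 and 0.27, and the kinase IKBKB by 0.40. Between EA and E, USP7, a deubiquitinase of FOXO proteins, was the gene of these 3 lists that was called, higher by 0.18 in 8 of 8 lines (adjusted p = 0.0461). The test called 1.88% of all genes higher in this comparison, which was fragile to the settings. How the USP7 call depends on them is not described here. At an unadjusted p under 0.05 there were 2 of 15 genes of the PI3K and AKT core, 3 of 22 of the mTOR branch and 9 of 22 regulators. Among all genes there were 1895 of 9085.

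**Figure D5:**
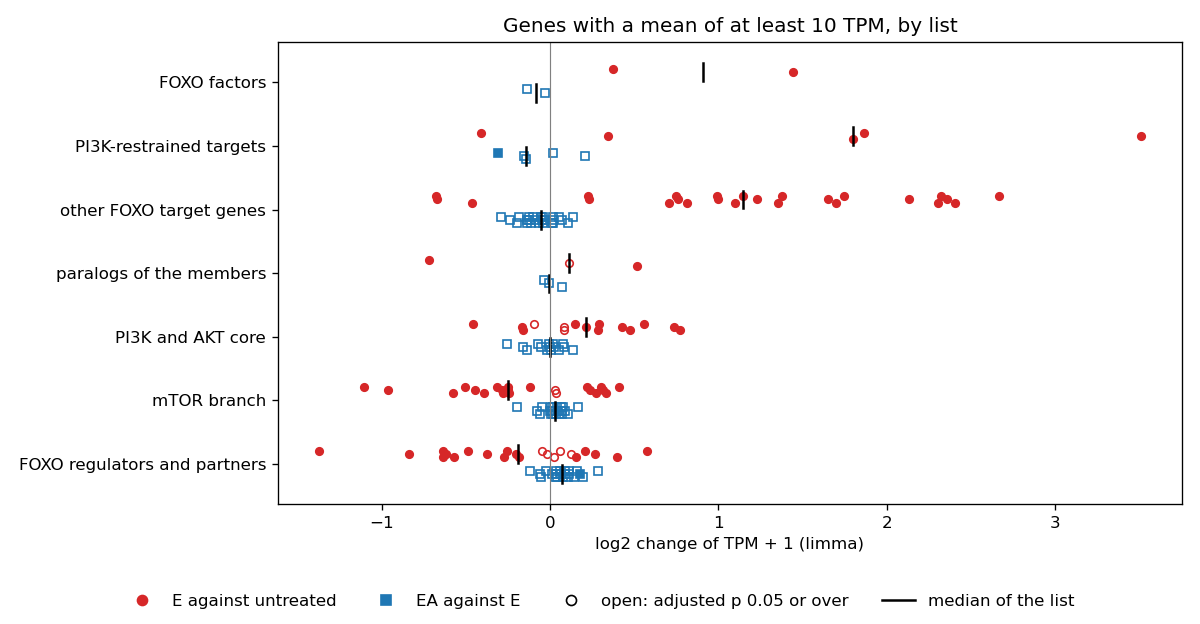
Log2 change of every gene averaging 10 TPM or more in 7 lists, E against untreated as red circles and EA against E as blue squares, filled where the adjusted p was under 0.05, with a black bar at the median of the list. The 25 other FOXO target genes have a median of 1.14 with E; the blue squares gather near 0, and PIK3IP1 and USP7 are the filled ones.

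Of the 8 paralogs of the members, 3 were tested: KLF7 and IRS1 as above, and CCNG1, which did not pass (0.11 on the log2 scale). FOXO6 lay between 2.27 and 6.41 TPM, SGK3 between 4.91 and 13.5 TPM and SESN2 between 1.77 and 3.14 TPM. SGK2 did not exceed 2.82 TPM, and IRS4 did not exceed 0.108 TPM. Among the markers, KRT7, CDH1 and KRT19 rose with E, by 0.88, 0.67 and 0.39, and KRT18, EPCAM and KRT8 fell, by 0.64, 0.44 and 0.31. COL1A1 rose by 1.03 and CD68 fell by 0.69.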

How the data were processed

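The authors deposited TPM per transcript for 29 libraries of polyA RNA, made, per the labels, with kallisto and GRCh38; the versions and the transcript annotation are not given in the sources used here. TPM keeps no depth, so counting error is unknown. Identifiers, without their version, were looked up in GENCODE 29: 169797 of 188753 transcripts matched, holding 97.0% to 97.4% of the TPM of a library, and were summed to 35579 genes.

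Genes averaging 10 TPM or more over the 29 libraries were tested as log2(TPM + 1), a scale that understates changes of low genes, with limma 3.58.1 (lmFit, eBayes with trend) in R 4.3.3, each cell line a block, and p-values adjusted by Benjamini-Hochberg over all 9085 genes (threshold 0.05). Exact p-values are two-sided and unadjusted, from sign flips of the differences within lines, with a smallest p of 0.00195 for 10 lines and 0.00781 for 8. The line pairs the libraries because they are the same cells; the median correlation of same-line deviations was 0.186 for E and untreated, 0.183 for EA and E, and 0.0318 for EA and untreated. Only 1 culture per line and treatment was sequenced.

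The members and lists were chosen with earlier results of these data known. The genes named were the members, AXL, up to 3 that rose most and 3 that fell most of each list, and the 3 genes with the highest r to each member; GADD45A, CCNG1, the untested paralogs and the pseudogene were added after their values were seen. The fits were repeated with other filters, a pseudocount of 0.1, median centring, quantile normalization, mitochondrial genes left out, no block, quality weights, KD included, the 8 lines for E, the most abundant transcript, and each line left out. On simulated data the fit was checked with known changes. Figures used matplotlib 3.10.9, and tables Python 3.11.15, numpy 2.4.6 and pandas 2.3.3.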

Additional observations from a re-analysis of the deposited data

Results flagged for a closer look

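Across the 10 members, 50 sets of values were examined for a line far from the others, the levels at each treatment and the differences within lines, and 8 held one, where chance would give about 1 in 20, or 2.5. The sets share libraries, so they are not independent, and the share of all genes with such a line was not taken. The change of PAR with E lay outside the range of the other lines in 42.5% of all genes. The count of 8 is therefore not read as particular to the members. The values below are on the log2(TPM + 1) scale. PAR was the line in 6 of the 8. Its SGK1 was 5.33 with E, against 5.87 to 6.24 in the others, and 4.69 with EA, against 5.86 to 6.23. Its IRS2 was 3.49 with EA, against 4.03 to 4.38, and changed by -0.19 with E, against 0.23 to 0.55. Its CCNG2 was 4.96 with EA, against 5.44 to 5.83. Its FOXO3 changed by -0.0332 with E, against 0.28 to 0.48, and the untreated level behind this included 5.13 TPM of the minor transcript FOXO3-203. WT was the line in the other 2: FOXO1 was 3.85 untreated, against 2.35 to 2.86, and changed by -0.83 with E, against 0.06 to 0.83. Both rest on the untreated WT library.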

How the results depend on the processing

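The comparison of E and untreated called 7175 genes, between 5711 (at least 10 TPM in every library) and 10759 (no filter), and 6811 with no replicate block. EA against E was fragile: 214 genes were called, 67 with the filter at a mean of 1 TPM, 6 with no filter, 9 with no replicate block, 120 with the KD pair included, 311 with mitochondrial genes left out, and 10 to 188 when each line was left out, fewest without Y634F (18 without Y643F, 55 without PAR or Y698F, 76 without Y750F, 94 without Y821F, 131 without WT). The called member, PIK3IP1, was lost (0 members called) with the filter at a mean of 1 TPM, with no filter, with no replicate block, with the KD pair and with the most abundant transcript, and 0 to 1 members were called with a line left out, the 1 without Y750F. Without the block, EA against untreated called 6089 genes and 5 members. The count of members called fell to 4 (E against untreated) and 3 (EA against untreated) when at least 10 TPM was required in every library, because fewer members were tested. Of the genes called between EA and E, 79.9% were higher, and 64.9% with medians centred. Small differences turned: between EA and E, CCNG2 ranged from -0.000908 (without Y634F) to 0.0381 and SESN1 from -0.0109 (without Y821F) to 0.147 with a line left out, and SESN3 was -0.00167 with its most abundant transcript. The median r within treatments was 0.169 with medians centred. The core TAAACA, in 12.3% of all windows, stood in 3 members, GTAAACA alone in 2, and GTAAACA or CAAAACA in 4. Depth is unknown, which limits FOXO1, SESN1 and SESN3 most.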
